A study of Homo sapiens with 8 samples.

Results

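Isolated CpGs are CpGs of the 22 autosomes with no other CpG listed in any of the 8 libraries within 500 bp on either side. With 10 or more reads asked for on days 0, 1, 2, 6 and 7, 448 CpGs met this rule among 2496769 autosomal CpGs that passed the same read minimum (0.0179%). They were chosen by position and depth, and the rule uses no methylation value. The rule was set with earlier results of these data known. The cells were HUES64, an established human embryonic stem cell line, labelled in all 8 samples with the genotype DNMT1 knockout and followed from day 0 to day 7 of DNMT1* withdrawal. The time course has 1 library of reduced representation bisulfite sequencing (RRBS) per day and no replicates, and whether the line is 1 clone is not given in the sources used here.

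DNMT1 is the maintenance methyltransferase: after replication it restores methylation at CpGs that carry the mark on the parental strand alone. DNMT1* is the added, repressible copy that keeps the knockout line methylated, and once it is withdrawn methylation is diluted as cells divide. DNMT1 can move along DNA from one CpG to the next, and the methylation of neighbouring CpGs tends to be alike. CpGs with no listed neighbour are therefore set here against CpGs with listed neighbours, though unlisted CpGs may lie close to the former. RRBS reads DNA from MspI sites, and as every end of such a fragment holds a CpG, listed CpGs usually come with company.

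The rule left few CpGs. Of 3086582 listed autosomal CpGs, 1367 had no listed neighbour within 500 bp, and 448 of these (32.8%) reached 10 reads in the 5 deeply sequenced libraries, against 80.9% of all listed autosomal CpGs. The other 919 had fewer reads on at least 1 of these days and are not part of the values below. CpGs with exactly 1 listed neighbour were far more frequent (82952, or 3.32% of qualifying CpGs), and 2265938 (90.8%) had 3 or more. The latter are called clustered CpGs here. An unlisted CpG may still lie within 500 bp, since a CpG of the genome is listed only where reads covered it.

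The isolated CpGs lay on all 22 autosomes, with 39 on chromosome 1, 38 on chromosome 5 and 1 on chromosome 21. Their nearest listed CpG was 501 to 69270 bp away, with a median of 2676 bp, and 65 had no other listed CpG within 10 kb. The median number of listed CpGs within 10 kb was 13 (quartiles 4 and 35), close to the 16 of CpGs with 1 neighbour and below the 77 of clustered CpGs. Of the 448, 234 were listed on the plus and 214 on the minus strand. None changed strand between libraries, as against 5.98% of clustered CpGs and 0.047% of CpGs with 1 neighbour. No genome or annotation of hg19, the build named in the submitters' processing notes, was used here, so neither sequence context nor genes are given for these positions.

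Depth was slightly lower than at clustered CpGs. For days 0, 1, 2, 6 and 7, the median isolated CpG had 45, 20, 43, 39 and 36 reads, against 50, 24, 48, 44 and 43 at clustered CpGs. Days 3, 4 and 5 were sequenced shallowly, with a median of 4, 4 and 3 reads, so these days were read from the pooled reads of all members (1704 to 2245 reads). Intervals are Wilson 95% intervals and cover counting error only. Copies of a molecule made by PCR may be counted as separate reads, since the sources used here give no duplicate handling. Standard errors over CpGs cover the spread between CpGs within a library, not that between time courses.

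Isolated CpGs started highly methylated. Their mean level on day 0 was 83.4% ± 14.9 (SD, n = 448 CpGs) with a median of 87.0%, and 357 of them (79.7%) stood at 80% or more, 82 (18.3%) between 20% and 80%, and 9 (2.01%) at 20% or less. Clustered CpGs had a mean of 51.7% ± 39.3 and fell into those classes at 40.6%, 24.8% and 34.6%. CpGs with no methylated read on day 0 made up 28.8% of clustered CpGs and 0.446% of isolated ones (2 of 448). The high start was not limited to isolated CpGs: of the CpGs with 1 neighbour, 47.2% lay between 80% and 90% and 30.6% above, next to 48.0% and 31.7% of isolated CpGs.

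**Figure D1:**
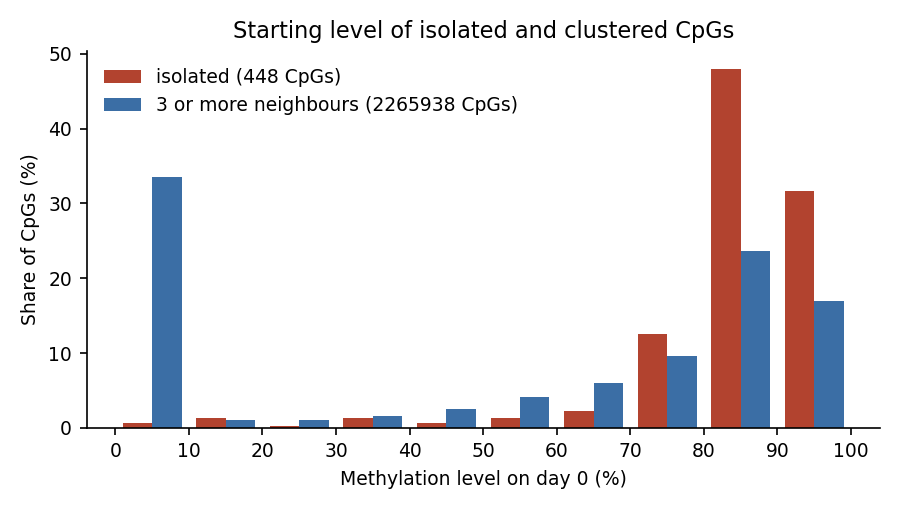
Methylation level on day 0 in 10-point bins (x axis, %) against the share of CpGs (y axis, %), for 448 isolated CpGs (red) and 2265938 clustered CpGs (blue). Isolated CpGs gather above 80%, whereas 33.5% of clustered CpGs lie below 10%.

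The 357 highly methylated isolated CpGs lost most of their methylation. From 88.6% ± 4.6 before withdrawal, their mean level came to 82.9% ± 9.3 after 1 day, 72.8% ± 8.7 after 2, 22.6% ± 10.4 after 6 and 19.6% ± 10.1 after 7 (SD, n = 357 CpGs). In the shallow libraries the pooled reads gave 51.7% on day 3 (interval 49.4 to 54.1%), 39.2% on day 4 (36.9 to 41.6%) and 29.3% on day 5 (26.9 to 31.7%). On the scale of pooled reads, day 1 kept 93.5% of day 0 and day 2 kept 87.5% of day 1. Days 3 to 6 each kept 71.6 to 75.8% of the day before, and day 7 kept 88.0% of day 6. The smallest losses, relative to the day before, thus fell at the start and at the end of the course.

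The decline was read CpG by CpG as well. Of the 357, 256 were lower on day 1 than on day 0, 342 were lower on day 2 than on day 0, all 357 were lower on day 6 than on day 2, and 212 were lower on day 7 than on day 6. The lowest, median and highest levels were 80%, 88.6% and 100% on day 0, 44.4%, 72.7% and 96.7% on day 2, and 0%, 18.0% and 63.4% on day 7. All day 7 levels were below 80%, the level that chose these CpGs on day 0. The counts against day 0 use the same reading that chose these CpGs.

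**Figure D2:**
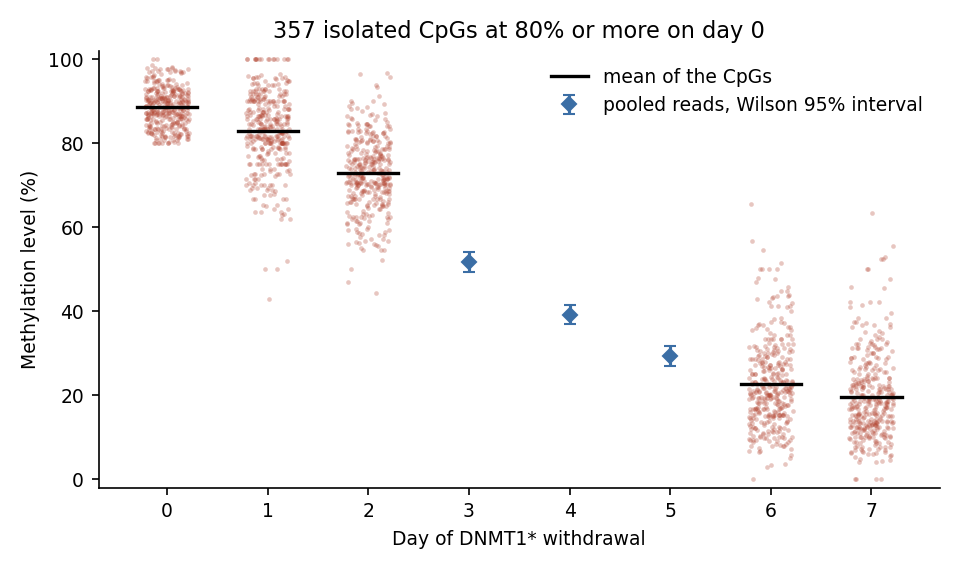
Methylation level (y axis, %) of each of the 357 isolated CpGs at 80% or more on day 0 (red points) by day of withdrawal (x axis), with a short black line at the mean of each day. Blue diamonds give the pooled reads of the same CpGs on days 3 to 5 with Wilson 95% intervals; the mean goes from 88.6% on day 0 to 19.6% on day 7.

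As an exponential decline over the 5 deep libraries, these CpGs lost 21.0% of their level per day, a natural-log slope of -0.236 ± 0.020 per day (SE, n = 5 libraries) and a halving time of 2.94 days. An exact two-sided permutation test of the 5 days gave p = 0.0083, the smallest value 120 orders can give (0.015 after Benjamini-Hochberg adjustment over 7 trends). Pooled reads of all 8 libraries gave -0.245 ± 0.015 per day and an exact permutation p of 5e-05, the smallest possible there (adjusted 0.00035). The 82 isolated CpGs between 20% and 80% went from 68.7% ± 13.9 on day 0 to 13.3% ± 8.9 on day 7 (SD, n = 82 CpGs), at -0.267 ± 0.030 per day (exact permutation p = 0.0083, adjusted 0.015). The difference between these slopes was not tested. All trends rest on a single course, so their p values do not cover variation between courses.

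A quasi-binomial regression on day was then fitted for each of the 2496769 CpGs, with dispersions moderated by limma. At an adjusted p below 0.05, 441 of the 448 isolated CpGs fell and 0 rose, where 69.1% of all CpGs tested fell and 0.0181% rose. No isolated CpG rose at an unadjusted p below 0.05 either, nor by Fisher's exact test of day 0 against day 7 (background 0.00717%). The median slope was -0.53 log odds per day for isolated CpGs and -0.44 for all CpGs, which start lower; among CpGs at 80% or more on day 0 the order was the opposite, with -0.54 for isolated CpGs and -0.55 for all. Within starting classes the shares were near the background: 357 of 357 isolated CpGs at 80% or more fell (background 100%, or 1086290 of 1086602 CpGs), and so did 80 of 82 between 20% and 80% (background 98.7%). Other call rules left the count of falling CpGs near 441: 438 by Fisher's exact test (background 67.6%), 414 without moderation of the dispersion (62.6%), 434 to 441 with 1 day left out (68.1%, 68.7%, 68.9%, 68% and 67.1% without day 0, 1, 2, 6 and 7), and 242 of the 243 with 20 or more reads (66.8%).

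At 20% or less, 4 of 9 isolated CpGs fell, where the background was 3.45%. These 9 began higher than other CpGs of their class, with a mean of 10.4% on day 0 against 0.937% at clustered CpGs of the class, and together read 48 methylated of 439 reads on day 0 and 8 of 337 on day 7. The call of the 4 is not stable in number: 3 fell without day 1, without day 7 or by Fisher's exact test, and 0 fell without moderation of the dispersion. In reads simulated with a spread that is wide near 0, this test gave too many false calls, which were not counted by starting level. The 7 isolated CpGs that did not pass were 5 of these 9 and 2 of the class between 20% and 80%. None of the 9 had 50 or more reads in each deep library, so none could be named under the rule for rises from 20% or less. A single one read higher on day 7 than on day 0, at chromosome 1: 178971765 to 178971766, with 3 of 18 and 2 of 10 reads methylated.

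Whether the loss differed where no neighbour was listed was asked at equal start. Clustered CpGs were weighted to the 357 isolated CpGs over 5-point bins of day 0 level and classes of day 0 depth, which left 904042 clustered CpGs with a mean of 88.6% on day 0, alike by construction. Both sets then followed nearly the same course. On day 1 isolated CpGs stood at 82.9% and clustered ones at 83.0%, a difference of -0.094 ± 0.49 points (SE over CpGs). Isolated CpGs were lower on day 2, at 72.8% against 73.9% (-1.12 ± 0.46 points), and higher on day 6, at 22.6% against 22.1% (0.501 ± 0.55 points), and on day 7, at 19.6% against 18.4% (1.21 ± 0.54 points). With 1 library per day these single-day differences have no replicate check.

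Expressed as the share of the day 0 level, isolated CpGs kept 82.2% on day 2 and 22.2% on day 7, and clustered CpGs 83.4% and 20.8%. Isolated CpGs were the lower set on day 2 on 16 of the 21 autosomes with such members and the higher set on day 7 on 13 of 21. Chromosome 7, with 18 members, had the widest day 7 difference in favour of isolated CpGs, 8.19 points. The medians over CpGs differed in the same directions, at 72.7% against 74.5% on day 2 and 18.0% against 17.1% on day 7. In the shallow libraries the differences were -1.10 ± 1.38, 1.77 ± 1.35 and -1.61 ± 1.50 points on days 3, 4 and 5, in both directions and close to their errors.

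**Figure D3:**
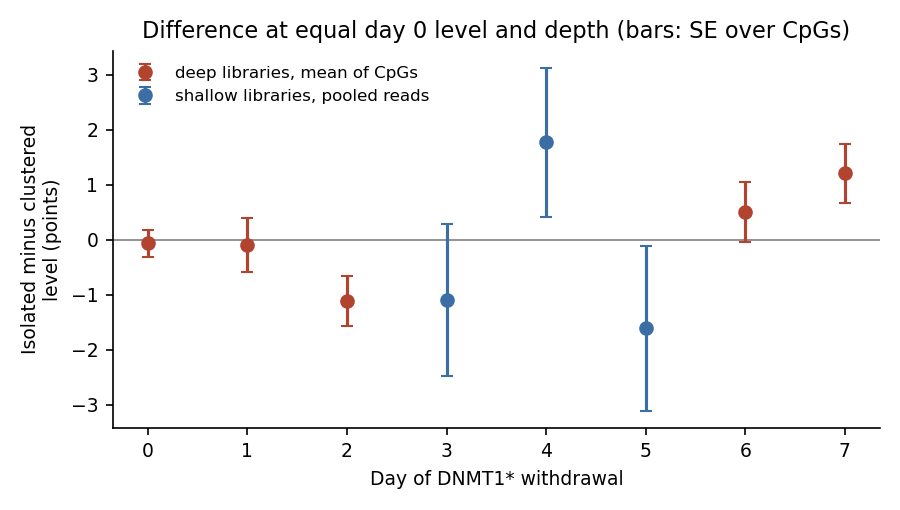
Level of 357 isolated CpGs minus that of clustered CpGs weighted to the same day 0 level and depth (y axis, points) by day (x axis); bars are the standard error over CpGs. The deep libraries (red) go from -1.12 points on day 2 to 1.21 points on day 7, and the shallow libraries (blue) lie on either side of 0.

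The log ratio of isolated to clustered level rose by 0.0084 ± 0.0030 per day (SE, n = 5 libraries), which did not pass (exact permutation p = 0.05, adjusted 0.07). Over all 8 libraries, by pooled reads, it was 0.0012 ± 0.0053 per day (exact permutation p = 0.83). Over all starting levels, with 448 isolated CpGs, it was 0.0048 ± 0.0029 per day (exact permutation p = 0.12, adjusted 0.15). The slope also shrank to 0.0022 per day with reads weighted equally (exact permutation p = 0.64), 0.0024 with 20 or more reads per CpG (exact permutation p = 0.5), 0.0046 with 5 or more (exact permutation p = 0.083) and 0.0044 without day 7 (exact permutation p = 0.33). It was larger at a radius of 1000 bp, at 0.0101 (exact permutation p = 0.05), and against 10 or more neighbours, at 0.0105 (exact permutation p = 0.067). Day 0 was alike by construction, yet these tests permute it with the other days. Without day 0 the slope was 0.0103 (exact permutation p = 0.17, smallest possible 0.083). A difference in rate was therefore not shown, and in the 5 deep libraries its size was small beside the slope of -0.236 per day itself.

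The direction of the late difference depended on how far a CpG had to stand from the next listed one. When 250 bp was enough, 5266 highly methylated CpGs counted as isolated. They kept 19.9% on day 7, 0.848 ± 0.15 points less than clustered CpGs (SE over CpGs), and the log ratio fell by 0.0067 per day (exact permutation p = 0.058). When 1000 bp was asked for, 301 such CpGs kept 22.4% on day 7, 1.65 ± 0.67 points more than clustered CpGs. Their difference on day 2 was -0.693 ± 0.56 points. With 20 or more reads per CpG, the 200 isolated CpGs left kept 0.403 ± 0.66 points more than clustered CpGs on day 7 and 2.07 ± 0.62 points less on day 2, while read weighting and a minimum of 5 reads gave 0.659 and 0.710 points on day 7.

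The whole range of neighbour numbers puts these values in place, again weighted to the start and depth of the isolated CpGs. On day 2 the share kept was 81.1% with 1 neighbour, 81.7% with 2, 82.3% with 3 to 9, 83.5% with 10 to 19, 85.4% with 20 to 39 and 86.6% with 40 to 215. Isolated CpGs, at 82.2 ± 0.5%, fell next to CpGs with few neighbours. On day 7 CpGs with 1 to 19 neighbours kept 20.7 to 21.1%, those with 20 to 39 kept 20.2% and those with 40 or more 19.1%, and isolated CpGs stood above them at 22.2 ± 0.6% (SE over CpGs).

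Set against CpGs with exactly 1 neighbour, a comparison added after the data were seen, isolated CpGs kept 1.07 ± 0.52 points more on day 2 and 1.45 ± 0.61 points more on day 7. The log ratio then rose by 0.0090 ± 0.0010 per day (exact permutation p = 0.0083, the smallest possible, not adjusted). Weighting set day 0 alike here too, and the test permutes it with the other days, so this p cannot decide a difference in rate. The sign of the day 2 difference thus depended on whether isolated CpGs were set against CpGs with 1 neighbour or with 3 or more.

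Distance to the nearest listed CpG gave no steady course among isolated CpGs. They kept 20.3 ± 1.7% on day 7 where it was 501 to 1000 bp away (56 CpGs), 22.2 ± 1.2% at 1001 to 2000 bp (85), 23.5 ± 1.2% at 2001 to 5000 bp (112) and 22.1 ± 1.2% beyond (104). The 4830 CpGs just outside the rule, at 251 to 500 bp, kept 19.6 ± 0.2%. Across the 357 CpGs, log distance and day 7 level correlated at r = 0.022, and the number of listed CpGs within 10 kb and day 7 level at r = 0.040. Reads on day 0 correlated with the day 7 level at r = -0.153. These are descriptions over CpGs of the same libraries.

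**Figure D4:**
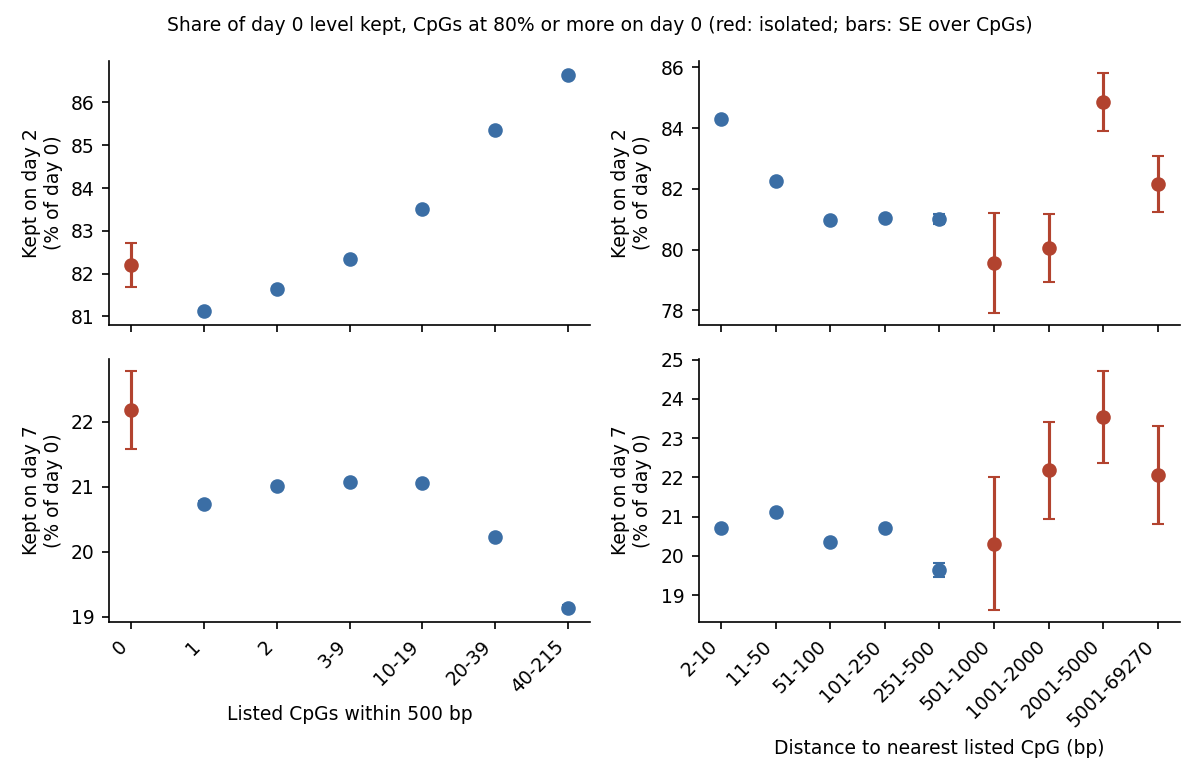
Share of the day 0 level kept on day 2 (upper panels) and day 7 (lower panels), in percent, by number of listed CpGs within 500 bp (left) and distance to the nearest listed CpG (right), for CpGs at 80% or more on day 0 weighted to the start of the isolated CpGs. Red points are isolated CpGs and bars the standard error over CpGs; on day 7 isolated CpGs stand at 22.2% and CpGs with 40 or more neighbours at 19.1%.

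At the limits of the rule, 9 highly methylated CpGs with a neighbour at 451 to 500 bp kept 21.6% on day 7, and 7 with the nearest at 501 to 550 bp kept 14.0%. The 43 isolated CpGs whose fewest reads on a deep day numbered 7 to 9 kept 20.7%, and the 60 with 10 to 12 kept 23.7%.

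The nearest other CpG with 10 or more reads served as a local comparison, also added after the data were seen. In 283 of the 357 cases it too stood at 80% or more on day 0, at a median distance of 3017 bp. Isolated CpGs kept 82.6% on day 2 and their partners 83.1%, and 22.1% against 20.4% on day 7. The day 7 difference was 1.54 ± 0.80 points (SE over pairs), with the isolated CpG higher in 151 pairs, lower in 129 and equal in 3. For these pairs the log ratio rose by 0.011 ± 0.003 per day (exact permutation p = 0.05).

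CpG-to-CpG spread was similar with and without listed neighbours on days 6 and 7, and read smaller without them on days 1 and 2. These differences in spread were not tested. After an allowance for counting error, the SD among the 357 isolated CpGs was 3.13 points on day 1, 5.18 by day 2, 7.59 by day 6 and 7.5 by day 7. Matched clustered CpGs had 5.4, 6.36, 7.99 and 7.34 points. On day 0 no spread beyond counting error could be measured, since the class is limited to 80% or more. If 10 reads are drawn from every CpG, the SD expected among isolated CpGs was 12.3 ± 0.5 points for day 1, 14.9 ± 0.6 for day 2, 15.1 ± 0.6 for day 6 and 14.4 ± 0.5 for day 7, and among clustered ones 12.9, 15.1, 15.2 and 14.1 (SE of an SD over 357 CpGs).

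Draws of 10 reads also give the shares in each range at equal depth. At 80% or more stood 90.4% of isolated CpGs on day 0, 46.8% by day 2 and 0.132% by day 7, against 90.5%, 50.4% and 0.163% of clustered CpGs. On day 7, 68.9% of isolated CpGs stood at 20% or less (clustered 72.1%), and 14.7% had no methylated read among the 10 (clustered 16.6%). Because each library averages many cells, partial loss in all of them and complete loss in some cannot be told apart.

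Part of the spread was shared between libraries. Day 6 and day 7 levels of the 357 CpGs correlated at r = 0.479 (rho = 0.378), and the square root of their covariance, to which counting error does not add, was 7.08 points; clustered CpGs gave 0.516 and 7.18 points. Day 2 and day 7 correlated at r = 0.198, and day 0 and day 7 at r = 0.170. Counting error lowers these r values, and on day 0 no spread beyond it could be measured. How strongly earlier levels relate to what remained can therefore not be read from them. For days 2 and 7 the square root of the covariance was 4.16 points (clustered 4.36). For days 1 and 2 it was 3.78 points with r = 0.178, against 5.06 points and 0.281 at clustered CpGs. That difference was not tested. The level left at an isolated CpG showed little relation to that of its nearest partner, with r = -0.039 over the 283 pairs on day 7. These pairs lay 501 to 61246 bp apart. At 501 to 1000 bp r was -0.011 (41 pairs), and at 1001 to 2000 bp -0.113 (62 pairs). At 2001 to 5000 bp it was -0.063 (88 pairs), and at 5001 to 20000 bp 0.073 (76 pairs). For clustered CpGs r was 0.528 between CpGs 2 to 10 bp apart, 0.142 at 51 to 100 bp and 0.144 at 251 to 500 bp. It was 0.142 at 501 to 1000 bp and 0.090 at 2001 to 5000 bp. Whether isolated and clustered pairs differ was not tested. CpGs 2 to 10 bp apart can lie on the same reads. With the level of a CpG on day 6 set against that of the other on day 7, r was 0.300 at this distance and 0.143 at 501 to 1000 bp. It was -0.104 for the 283 pairs of an isolated CpG and its nearest partner.

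**Figure D5:**
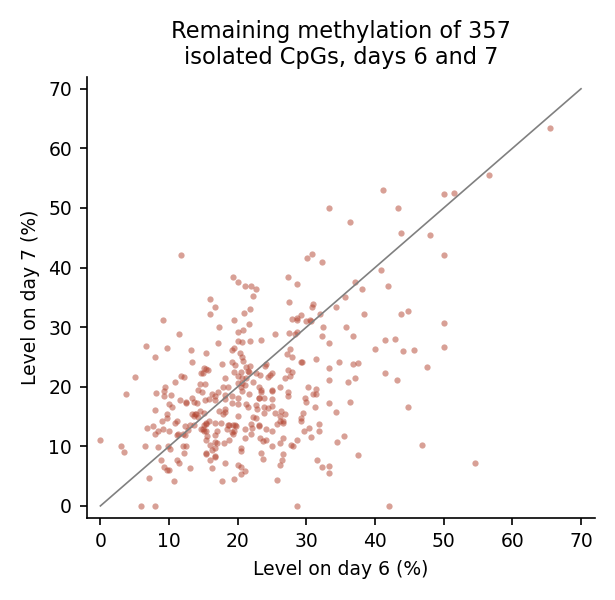
Level on day 6 (x axis, %) against level on day 7 (y axis, %) for the 357 isolated CpGs at 80% or more on day 0, 1 point per CpG; the grey line marks equal levels. The points correlate at r = 0.479 and 9 CpGs lie at 40% or more on both days.

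A small number of isolated CpGs kept much of their methylation. On day 7, 15 of the 357 (4.2%) stood at 40% or more and 7 (1.96%) at 50% or more, against 3.31% and 1.15% of matched clustered CpGs, and 4 had no methylated read. On both days 6 and 7, 9 isolated CpGs (2.52%) were at 40% or more, against 1.88% of clustered ones. The highest on day 7, singled out after its values were seen, was at chromosome 13: 110850759 to 110850760 on the plus strand, 3054 bp from the next listed CpG. It read 70 of 71 reads methylated at the start, 62 of 70 by day 2, 36 of 55 by day 6 and 26 of 41 by day 7 (63.4%, interval 48.1 to 76.4%). The next, at chromosome 7: 72096219 to 72096220 on the minus strand, read 49 of 50 on day 0, 17 of 30 on day 6 and 15 of 27 on day 7 (55.6%, 37.3 to 72.4%).

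Only 10 highly methylated isolated CpGs had 50 or more reads in each deep library. Their level over days 6 and 7 ranged from 11.6% (interval 8.6 to 15.4%), at chromosome 22: 18569839 to 18569840, to 32.2% (25.2 to 40.1%), at chromosome 2: 120418403 to 120418404. In the former, 89.3% of reads were methylated at the start, 92 of 151 by day 2, 18 of 161 by day 6 and 22 of 184 by day 7. In the latter, methylated reads numbered 68 of 85 at the start, 56 of 72 by day 2, 26 of 84 by day 6 and 21 of 62 by day 7. These CpGs were ranked on the level over days 6 and 7, so the gap between them on those days is a description. The deepest, at chromosome 4: 49144271 to 49144272, had 690 reads at the start, where it stood at 81.4%, and came down to 65.5% by day 2, 14.9% by day 6 and 13.0% by day 7 (interval 10.5 to 15.9%).

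The CpGs farthest from any other listed CpG behaved unevenly at low depth. The CpG at chromosome 2: 80975260 to 80975261, 69270 bp from the next, gave 34 of 43 methylated reads at the start, 15 of 25 by day 2, 1 of 33 by day 6 and 4 of 19 by day 7. At chromosome 1: 164989795 to 164989796, 54527 bp from the next, 27 of 31 reads were methylated on day 0 and 19 of 45 on day 7 (42.2%, 29.0 to 56.7%). At chromosome 5: 92826842 to 92826843, 51547 bp from the next, the counts were 49 of 54 and 6 of 44 (13.6%, 6.4 to 26.7%). The day 7 interval of the first, 8.5 to 43.3%, overlaps those of both others. The intervals of the last 2 do not overlap, but this pair was singled out after its values were seen.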

How the data were processed

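RRBS of 8 libraries, 1 per day, was analysed from lists that the authors deposited, with 1 CpG of 2 bp per line, its methylated and total reads, a strand and a score. The deposited score was not used: it repeats the methylated share on a scale of 1000 in 100% of lines. Per the submitters' processing notes the build is hg19; the sources used here give no aligner, caller, filter or duplicate handling. CpGs were joined by position, with starts counted from 1. The 8 libraries held 12359218 to 161534152 read calls.

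Neighbours were counted among all listed CpGs. Strata for matching were 5-point bins of day 0 level by read classes parted at 20, 40, 80 and 160 reads, with 10 or more clustered CpGs each. Trends were least-squares slopes of natural logs on day with exact two-sided permutation of the days. Per-CpG trends came from quasi-binomial regression, its dispersions shrunken with squeezeVar of limma along a trend in information, kept at 1 or more, with F tests and Benjamini-Hochberg adjustment over all CpGs at 0.05. Both steps were tested on simulated reads. A simulated spread that is wide near 0 gave too many false calls, which were not counted by starting level. Shares after drawing 10 reads are expectations over all draws, used in place of single draws.

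CpGs were named as follows: among members at 80% or more with 50 or more reads in each deep library, the 5 highest and 5 lowest over days 6 and 7 (only 10 qualified); the 3 largest rises from 20% or less; and the 3 farthest from a listed CpG. The members and rules were chosen with earlier results of these data known. Alternatives covered read minimums, radius, weighting, coverage, chromosomes, strand, matching and left-out days. Comparisons by sequence context and annotation were not run. Python 3.11.15, numpy 2.4.6, scipy 1.17.1, R 4.3.3 and limma 3.58.1 were used.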

Additional observations from a re-analysis of the deposited data

Results flagged for a closer look

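Methylation was also read in isolated CpGs outside the comparisons, in each case above the limit of 3 reads that a count of 0 allows. The 919 autosomal isolated CpGs under the read minimum had 3665 of 4518 reads methylated on day 0 (81.1%), 67.3% on day 2 and 665 of 3574 on day 7 (18.6%, Wilson 95% interval 17.4 to 19.9%; limit 0.0839%). Relative to the start this was 82.9% by day 2 and 22.9% by day 7, but 262 of the 1367 isolated CpGs are listed in only 1 library, so the same CpGs are not compared on every day. The 93 of the 919 that all 8 libraries list stood at 81.6% on day 0 and 15.4% on day 7 (interval 13.7 to 17.4%), or 18.9% of the start.

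The 101 isolated CpGs of the X chromosome stood at 86.5% of reads on day 0, 71.0% on day 2 and 20.6% on day 7 (interval 18.6 to 22.8%; limit 0.211%), or 82.1% and 23.8% of the start. On day 5 they read 33 of 127 (26.0%, interval 19.1 to 34.2%).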

How the results depend on the processing

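No pairing of replicate libraries was possible because each day has 1 library and the labels give no replicate numbers. The starting level was 84.0% with 20 or more reads and 82.8% at a radius of 250 bp. The share kept on day 2, isolated minus clustered, was -2.07 points with 20 or more reads, -2.38 at 250 bp, -2.35 against 10 or more neighbours and 1.07 against 1 neighbour; on day 7 it was 0.403 points with 20 or more reads and -0.848 at 250 bp. The slope of the log ratio was -0.0067 per day at 250 bp (exact permutation p = 0.058) and 0.0090 against 1 neighbour (exact permutation p = 0.0083). Both tests permuted a day 0 that weighting had set alike. The cause of these shifts was not tested. With 20 or more reads, 242 of the 243 isolated CpGs left fell. Leaving out 1 day gave decline slopes of -0.256 to -0.227 per day, with p values of 0.042 or 0.083 by exact permutation, the smallest that 4 days allow; log-ratio slopes of 0.0044 (without day 7) to 0.010; and 434 to 441 CpGs that fell. Other alternatives kept direction and side of the threshold for the slopes, and the spread stayed within its error in all 7. The log-ratio slope was 0.0022 with reads weighted equally, 0.0024 with 20 or more reads and 0.0046 with 5 or more. It was 0.0101 at a radius of 1000 bp and 0.0105 against 10 or more neighbours. Depth limits single CpGs: 205 of the 448 had under 20 reads on a deep day.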
